A study of Homo sapiens with 18 samples.

Results

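KISS1, CLSTN2, ZPLD1, NPPB, CLDN1, CORIN, SLIT2 and A2M are 8 genes, of 38716 gene symbols in the tables, that were picked for large differences between old and young IMR90 cells. IMR90 cells are fibroblasts of human fetal lung. The young group was proliferating IMR90 at low passage. The old group had reached replicative senescence at high passage. The ICM group was IMR90 at low passage given inflachromene (ICM), a compound known to bind HMGB1 and HMGB2, which are abundant DNA-bending proteins of chromatin, and described as inducing a senescence-like arrest. Each condition had 3 lysates, and each lysate gave 1 mRNA-Seq library of poly(A)+ RNA and 1 Ribo-Seq library, so that 18 libraries were analysed. All lysates contained cycloheximide, and the labels of these libraries give neither the dose nor the days of the ICM treatment. Per the study's methods the 3 replicates of a condition were grown independently. Because the old and young values chose the 8 genes, that comparison is given here as a description with no test, and so is ICM against old, which shares the old libraries. ICM against young was tested, although it shares the young libraries with the choice.

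Replicative senescence is the lasting arrest that cultured cells reach after many divisions. Fibroblasts in this state are known to change what they secrete, and all 8 genes encode secreted or membrane proteins. KISS1 encodes the precursor of the kisspeptins, which proprotein convertases cleave and which signal through the receptor KISS1R. NPPB encodes the precursor of B-type natriuretic peptide, a hormone best known from the heart, and CORIN encodes a transmembrane serine protease that processes natriuretic peptide precursors. SLIT2 encodes a secreted guidance ligand of the ROBO receptors, CLSTN2 a calsyntenin (a transmembrane protein of the cadherin superfamily), CLDN1 a claudin of tight junctions, ZPLD1 a membrane protein with a zona pellucida domain, and A2M a secreted protease inhibitor that traps its targets.

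The loci are given from GENCODE v44 on GRCh37, the build named in the submitters' processing notes. KISS1 spans bases 204159469 to 204165619 of chromosome 1 on the minus strand, with 3 exons and a CDS of 414 bases, and NPPB spans 11917521 to 11919002 of the same chromosome and strand, with 3 exons and a CDS of 402 bases. CLSTN2 (139654027 to 140296239, plus strand), ZPLD1 (101818088 to 102198685, plus strand) and CLDN1 (190023496 to 190040235, minus strand) are on chromosome 3. CORIN (47596016 to 47840123, minus strand) and SLIT2 (20253528 to 20622184, plus strand) are on chromosome 4, and A2M (9220260 to 9268825, minus strand) is on chromosome 12. The spans run from 1.48 kb in NPPB to 642 kb in CLSTN2. The canonical exons of A2M share 174 bases with exons of its antisense gene A2M-AS1. Strand use in the counting was not stated, so reads of those 2 genes may not be told apart. No base in the canonical exons of the other 7 genes lies in an exon of another gene. Their other exons were not compared.

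The sequence just before the start site is shown for 4 of the genes, because KISS1, CLSTN2 and CLDN1 were higher in old cells and SLIT2 was lower there. RefSeq promoters (GRCh38.p14) were used, and each run is 150 bases, 5′ to 3′ on the gene's strand, ending at the last base before the start. Its place was found by an exact match to GRCh37. Capitals mark CRE letters (TGACGTCA or its part TGACGT, either strand) and TATA letters (TATAAA, either strand).
KISS1, chr1:204165620-204165769, minus strand: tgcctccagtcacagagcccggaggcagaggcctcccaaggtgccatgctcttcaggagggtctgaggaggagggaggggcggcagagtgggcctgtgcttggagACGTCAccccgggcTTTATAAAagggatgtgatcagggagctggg
CLSTN2, chr3:139653877-139654026, plus strand: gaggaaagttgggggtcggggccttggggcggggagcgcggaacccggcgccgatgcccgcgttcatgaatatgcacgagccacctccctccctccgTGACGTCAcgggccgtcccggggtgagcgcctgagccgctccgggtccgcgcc
CLDN1, chr3:190040236-190040385, minus strand: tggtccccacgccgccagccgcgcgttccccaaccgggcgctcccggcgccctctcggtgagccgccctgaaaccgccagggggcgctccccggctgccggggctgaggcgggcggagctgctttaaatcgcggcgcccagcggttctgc
SLIT2, chr4:20253378-20253527, plus strand: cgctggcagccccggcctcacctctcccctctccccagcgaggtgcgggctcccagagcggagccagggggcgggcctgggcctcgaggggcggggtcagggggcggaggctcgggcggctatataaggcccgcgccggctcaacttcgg

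RefSeq promoters were matched for 6 of the 8 genes, and the 250 bases before each start were searched. CLSTN2 held the full CRE TGACGTCA at position -53 from its start, which 482 of 27303 promoters of that length held. KISS1 held the CRE part TGACGT on the opposite strand at -45, and TATAAA on both strands, at -31 and -29, where the matches overlap. The share of all promoters with TGACGT, a string that lies inside TGACGTCA, was 7.42%, and the share with TATAAA was 11.1%. Among the 10383 promoters of genes tested in mRNA-Seq, 2.87% held TGACGTCA, 10.3% TGACGT and 5.37% TATAAA. ZPLD1 held TATAAA on the opposite strand at -99 and the TEAD letters CATTCC on the opposite strand at -6, letters found in 11.9% of promoters. The RefSeq start used for ZPLD1 lies inside the span given above, which begins at base 101818088. The ZPLD1 window ended at base 102153858, so its motifs and GC content are not those before the span's first base. The CORIN window also reached into its span, with its last base at 47840085 and the span's end at 47840123. Which starts these cells use was not tested. None of the 6 held CCAAT (33.0% of promoters, 34.9% of those of tested genes) or the AP-1 letters TGANTCA (6.60% and 3.83%). CLDN1, CORIN and SLIT2 held none of the motifs searched. Only exact letters were searched, so a TATA-like run such as tatataa in the SLIT2 window was not counted. In GC content the 6 windows ranged from 42.8% in ZPLD1 to 77.2% in SLIT2, against a median of 58.0% over all promoters.

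The mRNA-Seq libraries held 7902427 to 14144455 reads in 5′ UTR, CDS and 3′ UTR columns. The Ribo-Seq libraries held 46239 to 1718521 CDS reads, a 37.2-fold range, and CDS reads were 15.0% to 88.8% of a library. Of 10 fibroblast markers, 10 reached a mean of 1 CPM, and their summed level was 32085 to 36372 CPM in young, 30273 to 35203 CPM in old and 13759 to 14260 CPM in ICM libraries. Markers of other cells were scarce: 0 of 6 epithelial, 1 of 6 endothelial, 1 of 4 immune and 2 of 5 cardiomyocyte markers reached 1 CPM. The immune sum, nearly all of it CD68, was 19.5 to 21.6 CPM in young, 32.4 to 35.6 in old and 53.9 to 66.1 in ICM libraries, and PTPRC averaged 0.0899, 0.0803 and 0.103 CPM and CD3E 0 CPM. The part of these sums in the results below was not tested. The epithelial sum was 0.572 to 2.35, 1.40 to 1.58 and 0.526 to 1.02 CPM in these conditions. Here and below, CPM is counts per 1000000 reads after TMM scaling of library sizes. In bulk RNA, fewer cells that express a gene and less RNA per cell cannot be told apart.

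**Figure D1:**
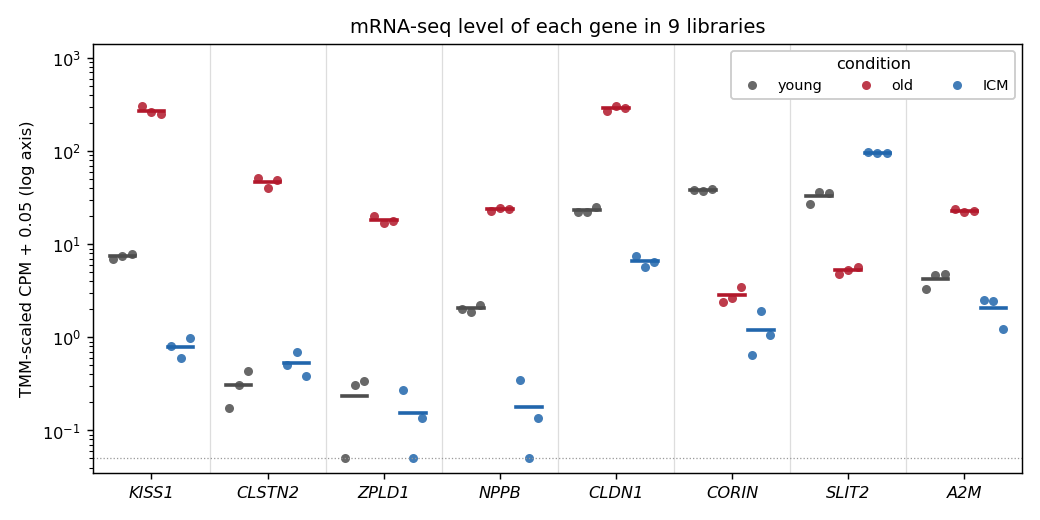
mRNA-Seq level of the 8 genes in each of 9 libraries, as TMM-scaled CPM plus 0.05 on a log axis; each point is 1 library, each bar the mean of 3, and the dotted line is 0 CPM. Old libraries are above young and ICM libraries in 6 genes and below young libraries in CORIN and SLIT2, and in SLIT2 the ICM libraries are the highest.

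In mRNA-Seq, 6 of the 8 genes were higher in old than in young cells and 2, CORIN and SLIT2, were lower, as the choice of members required. The old and young libraries did not overlap in 8 of 8 genes. Over all genes tested 67.1% did not overlap, 66.1% were called changed between old and young, 32.4% upward and 33.7% downward, and nothing is read from the members' count. ICM libraries were below the old libraries in 7 of the 8 genes and above them in SLIT2, without overlap. Against young cells, KISS1, NPPB, CLDN1, A2M and CORIN fell and SLIT2 rose, and CLSTN2 and ZPLD1 did not pass the test. These 6 of 8 calls stand beside 71.0% of all 13173 genes (34.9% called upward, 36.1% downward), a share near that of the members. The median log2 change of the 8 members from young to ICM was -1.45, and that of all genes tested was -0.01. ICM and young libraries did not overlap in 6 of 8 members and in 74.5% of all genes.

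**Figure D2:**
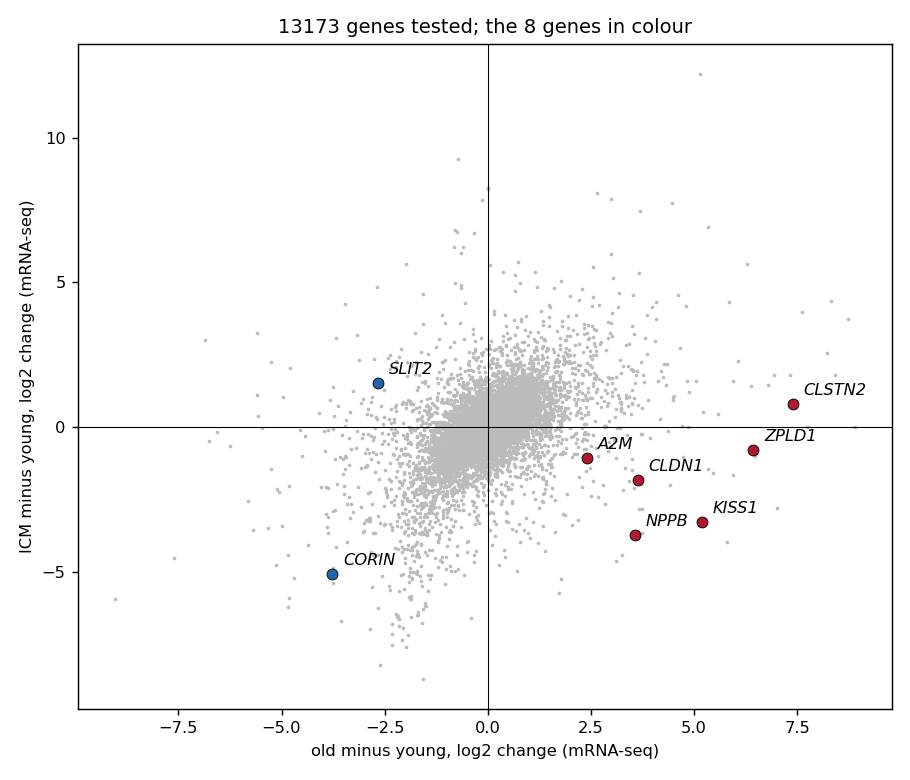
Fitted log2 change in mRNA-Seq from young to old (horizontal) and from young to ICM (vertical) for 13173 genes (grey) and for the 8 genes picked on the horizontal axis (red higher in old, blue lower). Both axes share the young libraries. Of the 6 red points 5 lie below the horizontal zero line, CLSTN2 lies just above it at 0.80, and SLIT2 and CORIN lie on opposite sides of it.

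KISS1 had 6.95, 7.41 and 7.82 CPM in the young libraries, 305, 260.3 and 251 CPM in the old and 0.751, 0.555 and 0.933 CPM in the ICM libraries. The 3 conditions did not overlap, and old cells had the most and ICM cells the least. The mean was 272 CPM ± 28.7 (SD, n = 3) in old against 7.39 ± 0.434 in young, a fitted log2 difference of 5.19 (SE 0.10), which placed KISS1 at rank 27 of 13173 among genes higher in old. From old to ICM the log2 difference was -8.48 (SE 0.14), at rank 4 of 13173 among genes lower in ICM. From young to ICM, KISS1 fell by 3.28 on the log2 scale (SE 0.23, adjusted p = 2.36e-11), from 223 to 27 reads in all. Of the KISS1 reads of old cells 56.7% were in the 5′ UTR column and 43.3% in the CDS column, and 0 were in the 3′ UTR column.

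NPPB had 1.99, 1.83 and 2.19 CPM in young, 22.8, 24.5 and 23.9 CPM in old, and 0.300, 0 and 0.0848 CPM in ICM libraries. Again the conditions were apart, in the same order as for KISS1. The old to young log2 difference was 3.56 (SE 0.16). From young to ICM, NPPB fell by 3.74 (SE 0.46, adjusted p = 1.70e-07), from 60 reads to 5, a 14.1-fold lower level with a counting interval of 5.71 to 45.0. Without ICM replicate 1 the log2 change was -5.17, and with CDS reads alone it was -2.85. Of the markers of cardiomyocytes, the cells in which NPPB is best known, MYH6 was at 0 CPM in all conditions, MYH7 averaged 0.0291 CPM in young and 0 in old and ICM, and the atrial peptide gene NPPA averaged 0.0581 CPM in young and 0 in old and ICM. The summed cardiomyocyte markers were 14.6 to 17.6 CPM in young, 14.2 to 16.4 in old and 6.57 to 7.81 in ICM libraries, nearly all TNNT2 and ACTN2.

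CORIN, whose protease processes natriuretic peptide precursors, went the other way from NPPB in old cells. It had 38.5, 37.7 and 38.8 CPM in young, 2.37, 2.59 and 3.43 CPM in old, and 0.601, 1.85 and 1.02 CPM in ICM libraries. Young libraries were far above the rest, and the old libraries were above the ICM libraries by a smaller distance. The young to old log2 difference was -3.77 (SE 0.15), and the old to ICM difference was -1.32 (SE 0.28). From young to ICM, CORIN fell by 5.09 (SE 0.17, adjusted p = 3.77e-17), at rank 59 of 13173 among genes lower in ICM. CORIN was the one gene of the 8 that was below young cells in both arrested states.

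SLIT2 was the reverse of KISS1 across the 9 libraries. It had 27.2, 36.0 and 35.6 CPM in young, 4.73, 5.26 and 5.65 CPM in old, and 98.2, 95.3 and 94.3 CPM in ICM libraries. The conditions did not overlap, with old the lowest and ICM the highest. The young to old log2 difference was -2.66 (SE 0.12) and the old to ICM difference was 4.19 (SE 0.11). From young to ICM, SLIT2 rose by 1.53 (SE 0.08, adjusted p = 1.81e-13), a 2.89-fold change, and SLIT2 was the only member that rose.

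CLDN1 had 22.3, 22.2 and 25.1 CPM in young, 269, 305 and 293 CPM in old, and 7.51, 5.64 and 6.44 CPM in ICM libraries. Each condition was apart from the other two. The young to old log2 difference was 3.64 (SE 0.08), and from young to ICM CLDN1 fell by 1.82 (SE 0.11, adjusted p = 2.72e-12), a 3.52-fold drop. In old cells 58.8% of its reads were in the 3′ UTR and 29.0% in the CDS, near the 59.1% and 28.9% of young cells. The epithelial markers EPCAM (0.724, 0.620 and 0.109 CPM in young, old and ICM) and CDH1 (0.420, 0.522 and 0.317 CPM) stayed under 1 CPM on average.

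CLSTN2 and ZPLD1 were close to absent outside old cells. CLSTN2 had 0.124, 0.262 and 0.381 CPM in young, 52.0, 39.8 and 48.9 CPM in old, and 0.451, 0.648 and 0.339 CPM in ICM libraries. The old libraries were apart, and young and ICM libraries overlapped. These are 8 reads in young, 1548 in old and 17.5 in ICM, so that old exceeded young 162-fold in depth-scaled reads (counting interval 82.1 to 376) and ICM 87.1-fold (53.4 to 143). From young to ICM the log2 change was 0.80 (SE 0.62, adjusted p = 0.249), which did not pass the test, and with CDS reads alone it was -0.21. The old to young log2 difference was 7.39 (SE 0.22), and 6.43 with CDS reads alone. With 8 reads in young, the counting interval above is wider than this SE gives. In old cells 72.2% of the CLSTN2 reads were in the 3′ UTR.

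ZPLD1 had 0, 0.262 and 0.286 CPM in young, 20.2, 17.0 and 17.8 CPM in old, and 0.225, 0 and 0.0848 CPM in ICM libraries. As for CLSTN2, old libraries stood alone and the other conditions overlapped. There were 6 reads in young, 609 in old and 4 in ICM, and old exceeded young 85.1-fold (counting interval 38.9 to 233). The change from young to ICM was -0.78 (SE 0.90, adjusted p = 0.445) and did not pass the test. It was -1.92 without ICM replicate 1 and -0.31 without ICM replicate 2, and -1.21, -0.50 and -0.43 without young replicates 1, 2 and 3, and passed in none of these. A smaller difference between young and ICM was not detectable at this depth in either gene.

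A2M had the smallest old to young difference among the 8. It had 3.23, 4.62 and 4.77 CPM in young, 23.9, 22.1 and 22.9 CPM in old, and 2.48, 2.41 and 1.19 CPM in ICM libraries. The conditions did not overlap, although the highest ICM library and the lowest young library were close. The young to old log2 difference was 2.41 (SE 0.15). From young to ICM, A2M fell by 1.07 (SE 0.23, adjusted p = 2.49e-04), a 2.10-fold drop. None of its reads were in the 3′ UTR column, and in old cells 98.3% were in the CDS column.

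The adjusted p values above are from edgeR's quasi-likelihood test, two-sided and adjusted over all genes tested by the Benjamini-Hochberg method. The 6 calls held under each scaling, filter, fit and left-out lysate tried.

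To compare genes with each other, CDS reads were divided by CDS length, as RPKM. In old mRNA-Seq, KISS1 was the most abundant at 438 RPKM ± 83.3 (SD, n = 3), followed by CLDN1 at 203 ± 0.581, NPPB at 55.8 ± 3.21 and ZPLD1 at 12.2 ± 1.72. A2M (7.75 ± 0.184) and CLSTN2 (6.59 ± 1.23) were neighbours in this order, with the lowest A2M library at 7.58 and the highest CLSTN2 library at 7.49. SLIT2 (1.18 ± 0.147) and CORIN (1.12 ± 0.365) overlapped at the low end. In young cells CLDN1 (16.6 ± 1.52) and CORIN (16.2 ± 0.615) overlapped at the top, KISS1 followed at 11.1 ± 1.49 and SLIT2 at 7.78 ± 0.939. In ICM cells SLIT2 was the most abundant at 22.4 ± 1.73, and the next, CLDN1, had 5.46 ± 1.42.

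Across the 9 mRNA-Seq libraries the log2 CPM of the 8 genes fell into few shapes. These correlations rest on 3 conditions of 3 libraries each, all from 1 cell line, and are given without a test. KISS1 and CLDN1 had a Pearson r of 0.997, KISS1 and NPPB 0.988, and KISS1 and SLIT2 -0.996. CLSTN2 and ZPLD1 were nearest to each other (0.981). CORIN was unlike the others, with r between -0.342 and 0.173 against the 7 genes.

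Of 10808 genes compared, those most like KISS1 were NUAK1 (r = 0.9993), a kinase of the AMPK family, GAS6 (0.999), the ligand of TAM receptors, and ADAM19 (0.998), a membrane metalloprotease. ADAM19 had 179.7 CPM ± 8.91 in young, 994 ± 61.8 in old and 66.6 ± 3.82 in ICM libraries (SD, n = 3). GAS6 had 1179.8 ± 20.6, 2647 ± 133 and 729.5 ± 40.2 CPM. These genes kept the order old, young, ICM with smaller differences than KISS1. For CLDN1 the nearest were USP53 (0.999), ADAMTS12 (0.998) and NUAK1 (0.998), and for NPPB they were PDCD1LG2 (0.996), the PD-1 ligand PD-L2, and TLDC1 and MEAK7 (0.995 each), which are the older and the current symbol of 1 gene. For CLSTN2 the nearest were the kinase CSNK1D (0.997), the uridine phosphorylase UPP1 (0.996) and the pregnancy-specific glycoprotein PSG5 (0.996). PSG5 had 2.12 CPM ± 0.529 in young, 13.1 ± 0.0256 in old and 2.47 ± 0.310 in ICM. For ZPLD1 they were FNIP2 (0.995), CAVIN2 (0.992) and the kinase PRKCE (0.991), and for A2M PNMA2 (0.988), PTPN13 (0.988) and GADD45B (0.987). CORIN was most like HNRNPF, PCM1 (both 0.994) and ACIN1 (0.993), genes for RNA-binding and centrosomal proteins, which were lower in old and ICM cells by less. Among the genes nearest to SLIT2 were TSHZ1 (0.997), a zinc finger transcription factor, and ANKRD28 (0.996), an ankyrin repeat protein. TSHZ1 had 24.0 CPM ± 2.14 in young, 13.3 ± 0.877 in old and 33.2 ± 0.132 in ICM libraries.

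**Figure D3:**
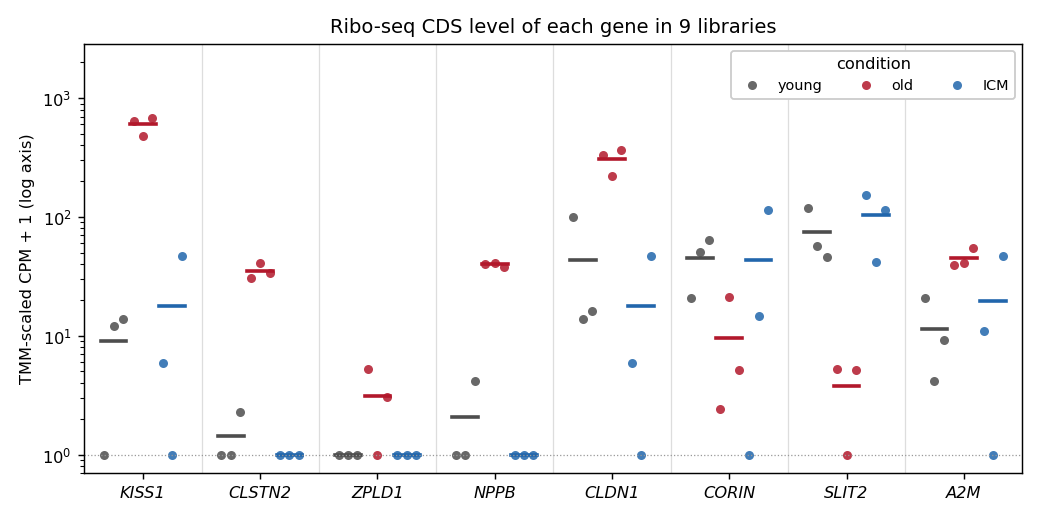
Ribo-Seq CDS level of the 8 genes in each of 9 libraries, as TMM-scaled CPM plus 1 on a log axis; each point is 1 library, each bar the mean of 3, and the dotted line is 0 CPM. Old libraries are above all others in KISS1, CLDN1, CLSTN2 and NPPB, and ICM replicate 3, with 46239 CDS reads, gives single points far above its group in KISS1, CLDN1, CORIN and A2M.

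Footprints, the mRNA fragments protected by ribosomes, were counted over the CDS. The libraries differ in depth, and a pair of them stand apart in genes outside the 8. Of genes outside the 8, 21 were higher in ICM mRNA-Seq by more than 4 on the log2 scale than in either other condition, chosen here on those values. Their summed Ribo-Seq level was 5891 to 9914 CPM in the ICM libraries and 137 to 190 CPM in 4 of the young and old libraries, but 1070 CPM in young replicate 1 and 1167 CPM in old replicate 2. These are the libraries with the lowest CDS shares, 34.4% and 15.0%. Likewise, 15 genes higher in old mRNA-Seq by the same rule summed to 59.4 CPM in young replicate 1 and to 16.0 and 22.3 CPM in the other young libraries. In old replicate 2 these 15 genes summed to 322 CPM, beside 600.2 and 646.5 CPM in the other old libraries. A further 6 genes higher in young by the same rule summed to 39.6 CPM in young replicate 1 and to 158 and 186 CPM in the other young libraries. In ICM replicates 1, 2 and 3 these 6 genes summed to 64.1, 0 and 68.5 CPM in Ribo-Seq, beside 8.19, 7.96 and 10.3 CPM in mRNA-Seq. The 15 genes higher in old summed there to 39.4, 0 and 45.7 CPM in Ribo-Seq, beside 6.38, 8.05 and 6.78 CPM in mRNA-Seq. The part of this in the values below was not tested. Values without young replicate 1 and old replicate 2 are given below, and the ICM libraries stay in those fits.

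KISS1 gave 899, 24 and 334 CDS footprints in old libraries, 0, 7 and 20 in young and 1, 0 and 2 in ICM libraries. As CPM these were 639, 483 and 686 in old, 0, 11.2 and 12.7 in young and 4.93, 0 and 45.7 in ICM. Old libraries were above all others, and 45.7 CPM in ICM replicate 3 stands for 2 reads. The young to old log2 difference was 5.71 (SE 0.29) in footprints beside 5.19 in mRNA. Among the 4643 genes tested in Ribo-Seq, KISS1 had rank 2 among those higher in old. Without young replicate 1 and old replicate 2 the log2 difference was 5.76.

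CLDN1 gave 328.5, 221 and 365 CPM in old, 99.0, 12.8 and 15.3 CPM in young and 4.93, 0 and 45.7 CPM in ICM libraries. Old libraries were above the rest, and young replicate 1, with 5 reads, was the highest of the young. The young to old log2 difference was 4.28 (SE 0.31) in footprints beside 3.64 in mRNA, and 4.58 without young replicate 1 and old replicate 2.

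NPPB, CLSTN2 and ZPLD1 had too few footprints for the test, and so did A2M. NPPB gave 39.1, 40.2 and 36.9 CPM in old, which were 55, 2 and 18 reads, and 0, 0 and 5 reads in young. Old exceeded young 16.0-fold (counting interval 6.54 to 50.6), and 15.6-fold without young replicate 1 and old replicate 2. No NPPB footprint was seen in 350260 ICM reads. The observed old level was 3.79-fold above, at equal depth, the 3 reads that a count of 0 allows over the group. CLSTN2 gave 29.9, 40.2 and 32.8 CPM in old, and in young 1.5 reads, an old to young ratio of 43.2 with a counting interval of 8.60 to 274, and of 41.9 without the pair of libraries. With 0 CLSTN2 reads in ICM, the observed old level was 3.08-fold above the level of 3 reads there. ZPLD1 gave 6, 0 and 1 reads in old and 0 in the other libraries, and the observed old level was 2.48-fold above that of 3 reads in young. In ICM ZPLD1 cannot be told from old at this depth, since 3 reads there stand for a scaled level of 8.57, above the 3.03 of old. A2M gave 38.4, 40.2 and 53.4 CPM in old, 19.8, 3.20 and 8.27 CPM in young and 9.85, 0 and 45.7 CPM in ICM libraries. The old and young libraries of A2M were apart, and the ICM libraries overlapped with both. The old to young ratio was 5.45 (counting interval 3.16 to 9.98), and 5.68 without the pair of libraries.

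CORIN gave 19.8, 49.5 and 62.4 CPM in young, 1.42, 20.1 and 4.10 CPM in old, and 0, 13.6 and 114 CPM in ICM libraries. Young and old libraries overlapped by 1 old library, replicate 2, whose value was 1 read. In footprints the log2 difference from young to old was -4.26 (SE 0.69), and -4.60 without that library and young replicate 1. The 114 CPM of ICM replicate 3 stands for 5 reads. SLIT2 gave 119, 55.9 and 45.2 CPM in young, 4.27, 0 and 4.10 CPM in old, and 153, 40.9 and 114 CPM in ICM libraries. Old libraries were below the rest, and ICM and young libraries overlapped. From young to old the log2 difference was -3.61 (SE 0.56), and -3.46 without the pair of libraries.

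Of the 8 genes, 4 (KISS1, CLDN1, CORIN and SLIT2) passed the filter of the Ribo-Seq test. Old and young footprints did not overlap in 3 of these 4, beside 38.9% of all genes tested. The members were chosen on old against young, so nothing is read from this count. ICM and young libraries did not overlap in 0 of 4, beside 30.4%. Over all genes 26.6% were called between ICM and young in Ribo-Seq, 13.7% upward and 12.9% downward, and among the 4 members 1 was called. SLIT2 footprints rose from young to ICM by 1.15 on the log2 scale (SE 0.43, adjusted p = 0.0453, edgeR). This call rests on many single libraries. Without ICM replicate 1 the change was 0.30, without young replicate 2 it was 0.79 and without young replicate 3 it was 0.57. Without old replicates 1, 2 or 3 it was 0.98, 1.10 and 0.96, and in none of these fits did it pass the test, with adjusted p from 0.0524 to 0.822. Without young replicate 1 and old replicate 2 together it was 1.13 (adjusted p = 0.0467). DESeq2 gave 0.77 (adjusted p = 0.473), and the replicate block gave 0.50 (adjusted p = 0.647). KISS1 (-0.33, SE 0.95), CLDN1 (-0.82, SE 1.00) and CORIN (-1.48, SE 0.79, adjusted p = 0.170) did not pass the test. Without ICM replicate 3, CORIN footprints fell by 3.93 (adjusted p = 0.00281), and KISS1 was at 0.41 without ICM replicate 1 and at -1.74 without ICM replicate 3.

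Translational efficiency, the footprint level relative to mRNA, was compared within lysates. Between young and ICM, 0 of the 4 members were called by edgeR's quasi-likelihood test, where 2.45% of 4618 genes were called. At an unadjusted p under 0.05 there were 2 of the 4 members, beside 733 of the 4618 genes. DESeq2 without the lysate block called 2 members, KISS1 and CORIN, and 375 genes in all. CORIN had a log2 change of 3.92 (SE 1.14, adjusted p = 0.0572), and KISS1 of 3.09 (SE 1.33, adjusted p = 0.233). Both rest on a few ICM footprints, 6 for CORIN and 3 for KISS1. Without ICM replicate 3 the values were 1.32 and 1.59. CORIN passed without ICM replicate 1 (4.47, adjusted p = 0.0138) and without ICM replicate 2 (4.54, adjusted p = 0.0332), and it passed at 3.68 (adjusted p = 0.0463) without young replicate 1 and old replicate 2. CLDN1 (0.95, SE 1.23) and SLIT2 (-0.30, SE 0.41) did not pass. From young to old, with no test, the changes in efficiency were 0.63 for KISS1 (SE 0.39), 0.78 for CLDN1 (SE 0.38), -0.44 for CORIN (SE 0.90) and -0.80 for SLIT2 (SE 0.68), all smaller than their changes in mRNA.

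**Figure D4:**
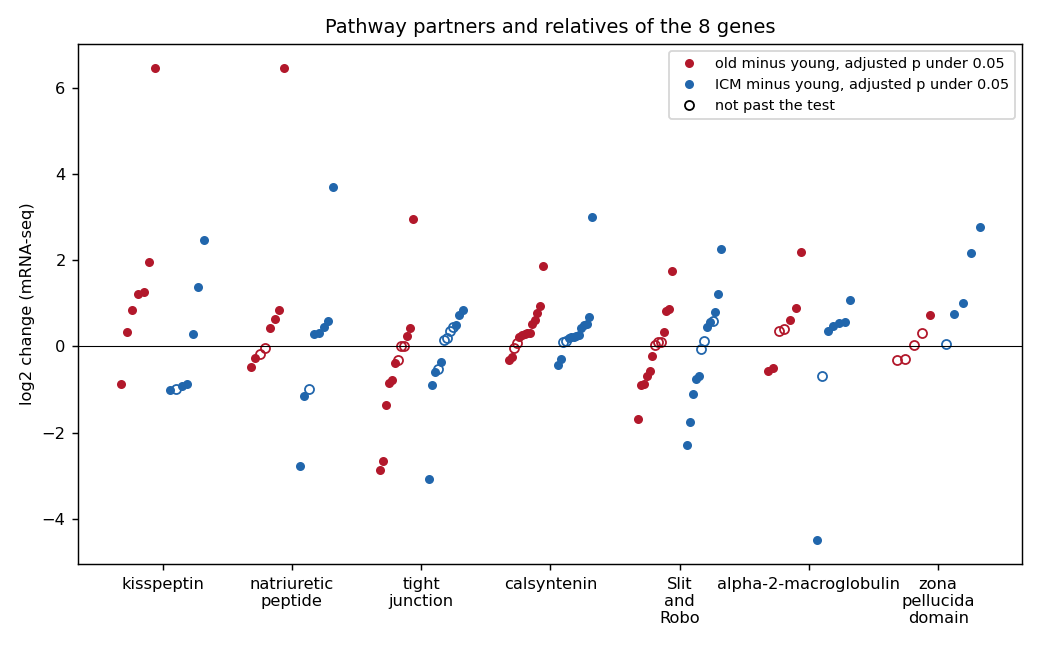
log2 change in mRNA-Seq of pathway partners and relatives of the 8 genes, by list; each point is 1 gene, red for old against young and blue for ICM against young, filled where the adjusted p was under 0.05. The 8 genes themselves are left out, both comparisons share the young libraries, and PCSK6, at 6.47 in the first 2 lists, is the highest point.

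The pathways of the 8 genes were read from 7 lists of 88 partners and relatives, none of them a member. Of these, 64 were tested in mRNA-Seq. From young to old 29 rose, 19 fell and 16 did not pass the test, where 66.1% of all genes were called, and from young to ICM 34 rose, 17 fell and 13 did not pass, where 71.0% were called. The counts in each list below stand beside the same shares of all genes. The median log2 change was 0.17 and 0.28, beside -0.01 over all genes in both comparisons. In Ribo-Seq 29 were tested, of which 13 rose and 3 fell in old, where 36.3% of all genes were called (19.3% upward, 17.0% downward). In ICM 4 rose and 3 fell, where 26.6% were called, a share near that of the list.

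In the kisspeptin list the receptor was missing. KISS1R averaged 0.0318 CPM in young, 0.0741 in old and 0 in ICM libraries and was not tested. Of the 7 genes tested, all of them enzymes that process or cleave peptides and proteins, 6 rose and 1 fell in old, and 3 rose and 3 fell in ICM. The proprotein convertase PCSK6 rose in old cells, with 62, 90 and 79 reads there, 0, 2 and 0 in young and 1, 0 and 0 in ICM libraries (adjusted p = 4.35e-12). Old exceeded young 96.8-fold, with a counting interval of 26.5 to 804. PCSK5 rose in both comparisons, from 4.06 CPM ± 0.976 in young to 16.0 ± 1.28 in old and 22.8 ± 0.655 in ICM (SD, n = 3), which is a log2 change of 2.46 (SE 0.13, adjusted p = 1.46e-13) in ICM. The gelatinase MMP2, which can cleave kisspeptin, fell from 755 CPM ± 11.1 in young to 415 ± 13.5 in old and 375 ± 16.9 in ICM (adjusted p = 2.40e-11 and 9.18e-13).

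Among natriuretic peptide genes, the guanylyl cyclase receptor NPR1, to which the NPPB product binds, averaged 0.0318, 0 and 0.0501 CPM in young, old and ICM libraries. Of the 8 tested, 4 rose and 2 fell in old, and 5 rose and 2 fell in ICM. NPR3, the clearance receptor that removes natriuretic peptides, rose from 13.3 CPM ± 2.51 in young to 175 ± 6.48 in ICM (log2 change 3.70, SE 0.10, adjusted p = 1.76e-18) and was at 20.8 ± 3.53 in old. The peptidase MME (neprilysin) fell by 2.77 in ICM (SE 0.13, adjusted p = 7.29e-15), from 29.8 to 4.40 CPM. PDE5A, a cGMP phosphodiesterase, fell by 0.48 in old (SE 0.08, adjusted p = 7.49e-06) and by 1.15 in ICM (adjusted p = 6.94e-12).

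Tight junction genes were read as relatives and partners of CLDN1. Of the 12 tight junction genes tested out of 23, 3 rose and 6 fell in old and 3 rose and 4 fell in ICM. CLDN11, the claudin of myelin and testis barriers, fell in both, from 882 CPM ± 34.4 in young to 139 ± 3.66 in old and 104 ± 3.99 in ICM, a log2 change of -3.09 (SE 0.06, adjusted p = 1.28e-20) in ICM. F11R, the junctional adhesion molecule JAM-A, rose in old by 2.95 (SE 0.22, adjusted p = 7.53e-11), from 1.14 to 9.03 CPM, and was at 0.814 CPM in ICM (adjusted p = 0.202). CGNL1 fell in old by 2.87 (SE 0.37, adjusted p = 5.06e-07), from a low level of 2.02 to 0.281 CPM. CLDN23 rose most in ICM, by 0.84 (SE 0.19, adjusted p = 3.99e-04), from 2.81 to 5.11 CPM, and it fell in old to 1.09 CPM.

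Calsyntenin partners, which include the kinesin light chains, the APBA adaptors and gamma-secretase, were all expressed. Of the 14 tested, 10 rose and 2 fell in old, and 10 rose and 2 fell in ICM. APBA1 rose most, from 5.46 CPM ± 0.656 in young to 20.0 ± 2.38 in old and 43.1 ± 2.09 in ICM, with log2 changes of 1.88 (SE 0.13, adjusted p = 2.02e-11) and 2.99 (SE 0.12, adjusted p = 4.11e-16). ADAM17 fell most in old (-0.32, SE 0.08, adjusted p = 0.00151), and APH1A, a gamma-secretase subunit, fell most in ICM (-0.44, SE 0.06, adjusted p = 2.20e-06).

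In the Slit and Robo list 13 of 14 genes were tested, and 4 rose and 6 fell in old while 5 rose and 5 fell in ICM. The receptor ROBO2 rose by 0.86 in old (SE 0.09, adjusted p = 3.69e-08), from 14.1 to 25.6 CPM, and was at 24.5 CPM in ICM. The syndecan SDC1, a heparan sulfate proteoglycan, fell by 1.70 in old (SE 0.11, adjusted p = 4.23e-12). SRGAP3, a GTPase-activating protein bound by ROBO receptors, rose by 2.27 in ICM (SE 0.16, adjusted p = 1.87e-11). ROBO4 fell by 2.28 in ICM (SE 0.40, adjusted p = 2.80e-05), from a low level of 1.94 to 0.383 CPM.

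Of 7 tested relatives and receptors of A2M, 3 rose and 2 fell in old, and 5 rose and 1 fell in ICM. LRPAP1, the chaperone of the A2M receptor LRP1, rose by 0.88 in old (SE 0.06, adjusted p = 4.50e-11). Complement C3, of the same protein family, fell by 4.50 in ICM (SE 0.40, adjusted p = 9.85e-10), from 3.33 CPM ± 0.856 to 0.140 ± 0.0509. C5 fell by 0.57 in old (SE 0.20, adjusted p = 0.0147) and rose by 0.57 in ICM (SE 0.17, adjusted p = 0.00385). Of 5 tested genes with a zona pellucida domain, 1 rose in old, the TGF-beta coreceptor ENG (0.74, SE 0.06, adjusted p = 8.55e-10), and 4 rose in ICM, with ZP1 by the most (2.78, SE 0.36, adjusted p = 4.80e-07, from 0.457 to 3.09 CPM).

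The nearest tested protein-coding gene on each side of each member was read as well. Of these 16 neighbours, 10 rose and 4 fell in old, where 66.1% of all genes were called (32.4% upward, 33.7% downward). In ICM 6 rose and 4 fell, where 71.0% were called (34.9% upward, 36.1% downward). PLEKHA6, 22.4 kb from KISS1, rose in old by 1.17 (SE 0.09, adjusted p = 5.89e-11) and fell in ICM by 0.74 (SE 0.10, adjusted p = 5.96e-07). PZP, next to A2M and its close relative in sequence, rose in old from 0.214 to 1.10 CPM (adjusted p = 3.99e-04), and how reads shared by the 2 genes were placed was not stated. CLDN16, 0.095 kb from CLDN1, rose in old from 0.446 to 1.23 CPM (adjusted p = 0.00607). Whether reads of a member were counted for its neighbour was not tested.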

How the data were processed

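Ribo-Seq and mRNA-Seq were measured in 9 lysates of IMR90 cells, 3 each of young, old and ICM, grouped by sample title. The authors deposited 1 table per library of estimated counts for each symbol without depth scaling, split by transcript region (5′ UTR, CDS, 3′ UTR) and class. Some reads were divided between features. The aligner, annotation and placing of reads with several matches are not given in the sources used here. The submitters' processing notes, shared by several assays, name STAR 2.6.0c and GRCh37.

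For mRNA-Seq, reads of the 3 regions were added together, and for Ribo-Seq those of the CDS alone were taken. Rounded values were fitted in R 4.3.3 by edgeR 4.0.16 (quasi-likelihood fit and test, TMM factors, genes kept by filterByExpr, every library of an assay together). Two-sided p-values were adjusted over all genes by the Benjamini-Hochberg method, with a threshold of 0.05. Translational efficiency was the interaction of assay and condition over 18 libraries, with the lysate as a block, since the methods state that both libraries came from 1 lysate. Within conditions, the deviations of paired libraries correlated with r between -0.0795 and 0.136. Fits were tested on simulated data. SE are on the log2 scale and are the absolute log2 change divided by the square root of the F of the quasi-likelihood test. They are not fitted standard errors, and for genes with few reads in a group they can be smaller than the counting error. Intervals of ratios of reads are exact at 95%, and these and the floor of 3 reads cover counting error only. Fold values against that floor take the higher group at its observed level, without its own counting error. Correlations used log2 CPM with a prior count of 2.

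The members and lists were chosen with earlier results of these data known. All 8 members are named. From each partner list and comparison, the called genes with the largest rise and fall were named if they averaged 1 CPM over the mRNA-Seq libraries, and for each member the 3 genes with the highest r among those averaging 5 CPM. A gene that this rule names and a neighbouring gene are not reported here. The receptors KISS1R and NPR1, neighbours and marker genes were named after their values were seen. Alternatives were another scaling (RLE), DESeq2 1.42.0, no filter, only the groups compared, a replicate block, CDS reads alone, thinned footprints, a threshold of 0.15 and leaving out lysates. Amino acid sequences and the promoters of NPPB and A2M were not used here.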

Additional observations from a re-analysis of the deposited data

Results flagged for a closer look

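Footprints outside the CDS were not used in the comparisons, and 3 such signals in old cells were above the young libraries relative to depth. KISS1 had 25 footprints in its 5′ UTR column in old cells, all of them in replicate 1, beside 4 in young. They were 1.95% of the KISS1 footprints of old cells, and the 4 reads were 12.9% of those of young cells, so that the share was lower in old. CLDN1 had 10 footprints in its 5′ UTR in old cells (9, 0 and 1 in the 3 replicates) beside 0 in young, and 18 in its 3′ UTR (11, 4 and 3) beside 2 in young, which were 1.47% and 2.65% of its footprints. The shares in young were 0% and 5.195%, so that the 3′ UTR share was lower in old. The differences were not tested, and groups of 3 are too small for a test of single outlying libraries.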

How the results depend on the processing

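In mRNA-Seq, counts of called genes, calls of members and of partners stayed on their side of the threshold, or within 1.5 times the count, under all alternatives, with 1 reversal in a value that had not passed the test: CLSTN2 from young to ICM, -0.21 with CDS reads alone. Ribo-Seq results moved more. Between ICM and young 1236 genes were called, 688 by DESeq2, 813 with only the compared groups and 741 with the replicate block. Leaving out 1 lysate gave 619 (without young replicate 3) to 1758 (without ICM replicate 3). With footprints thinned to the shallowest library edgeR called 0 of 1289 genes, 73 at an unadjusted p under 0.05, and no member was left to test. The 1 member called, SLIT2, became 0 by DESeq2, with no filter, with only the compared groups, with the replicate block and, untested, when thinned, and 0 to 2 when 1 lysate was left out. KISS1 in Ribo-Seq ranged from -1.74 to 0.41 over left-out lysates. In translational efficiency 113 genes were called, 308 with no replicate block, 375 by DESeq2 with no replicate block, 318 at an adjusted p under 0.15, and 34 to 173 over left-out lysates. Of the 4 members 0 were called, 2 by DESeq2, 1 (CORIN) with no filter, without young replicate 1 and old replicate 2 or at 0.15, and 0 to 1 over left-out lysates. CLDN1 efficiency ranged from -0.55 to 1.91. The nearest genes by Pearson r fill 24 places, and NUAK1 stands for both KISS1 and CLDN1. In 1 place, PTPN13 for A2M, the gene was also among the 3 nearest by Spearman correlation. Spearman ties at the top, up to 16 genes for SLIT2, were cut in arbitrary order, and this count can depend on that. Except where stated, the cause was not tested. Whether replicate numbers pair the samples across conditions could not be told. Same-numbered libraries correlated in their deviations with r from -0.0555 to 0.103. The 2 libraries of 1 lysate, which are paired, gave r from -0.0795 to 0.136, so this measure does not separate paired from unpaired libraries. The replicate block called 9407 genes in mRNA-Seq beside 9357, and SLIT2 in Ribo-Seq was the 1 member whose call it changed. Untested values of members moved by more than 1 SD in 18 cases, each in mRNA-Seq, and by less in 348, and the largest such moves were in NPPB and ZPLD1 from old to ICM without ICM replicate 1 (-8.73 and -8.35, beside -7.30 and -7.22). Depth limits the footprints: the ICM libraries held 350260 CDS reads in all, so that 3 reads are a scaled level of 8.57.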
